A study of Danio rerio with 2 samples.

Results

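The 10 genes described here encode the enzymes that make superoxide and hydrogen peroxide and the enzymes that remove them: the superoxide dismutase genes sod1, sod2, sod3a and sod3b, the catalase gene cat, and the NADPH oxidase genes cyba, cybb, ncf1, nox1 and duox. They were chosen by symbol for their role, with earlier results of these data known, and each symbol matched 1 gene model among the 22849 genes of the table. All of them passed the filter on low values, a summed value of at least 10 over both libraries, as did 21764 genes in all. RNA came from whole wild-type zebrafish larvae of strain AB at 6 days post fertilization (dpf). One group had been kept from 3 to 6 dpf in 1 µM benzo[a]pyrene (BaP), a polycyclic aromatic hydrocarbon that activates the aryl hydrocarbon receptor, and the other in 0.1% dimethyl sulfoxide (DMSO), a solvent. The series concerns the toxicity of BaP to bone. Each treatment was 1 stranded mRNA library made from the RNA of 4 pooled biological replicates, so the animals behind a value cannot be told apart and no difference between the treatments has a replicate check.

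Superoxide is formed when a single electron reaches oxygen, as a by-product of the respiratory chain or as the product of an NADPH oxidase. Superoxide dismutases convert it to hydrogen peroxide, and catalase, an enzyme of the peroxisome, splits hydrogen peroxide into water and oxygen. NADPH oxidases carry electrons across a membrane from NADPH. In phagocytes the catalytic subunit (cybb) and its membrane partner (cyba) are switched on by cytosolic subunits, of which ncf1 is the organizer, and the resulting burst of superoxide helps to kill microbes. Metabolism of BaP by cytochrome P450 and later enzymes can give quinones that cycle between redox states, a known source of superoxide.

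Values are normalized read counts, as the authors scaled and rounded them. A ratio is the BaP value over the DMSO value, and its 95% interval covers counting error only. A gene was called higher or lower when its ratio was at least 2-fold from equality and its interval excluded 1. By this rule 3.2% of all tested genes were higher and 3.46% lower, 6.66% together. An interval that excluded 1 was much more common, with 18.1% of all genes above 1 and 26.2% below, 44.3% together, so that an interval apart from 1 is common in these libraries. The interquartile range of the ratio over all genes was 0.809 to 1.14, with a median log2 ratio of -0.06. The libraries corresponded to about 19804000 (DMSO) and 21996000 (BaP) estimated reads. The aryl hydrocarbon receptor target cyp1a, with 650 and 17859 normalized reads in the DMSO and BaP libraries, was 27.5-fold higher and served as the check of the labels.

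Of the 10 genes, 1 was called higher, cyba, and 0 were called lower, beside 3.2% higher and 3.46% lower of all tested genes. The dismutase genes sod1, sod2 and sod3b had ratios between 1.38 and 1.79 with intervals above 1, and the catalase gene had a ratio of 0.629 with an interval below 1. The remaining oxidase genes lay close to equality or rested on few reads. Over the 10 genes 7 ratios were above 1 and 3 below, and the median log2 ratio was 0.31, against -0.06 over all tested genes. Among all tested genes 9039 ratios were above 1 and 12265 below. The intervals of 5 genes lay above 1 and that of 1 gene below. At a fold of 1.5 in place of 2, cyba, sod2 and sod3b were higher and cat was lower, 3 and 1 of the 10 genes, where 7.2% of all genes were higher and 8.6% lower.

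**Figure D1:**
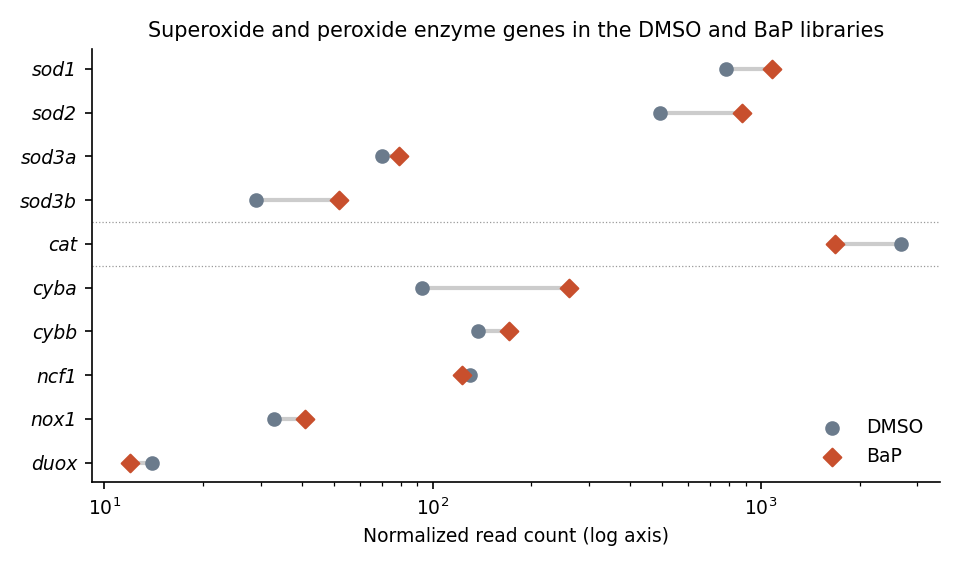
Normalized read count (log axis) of each gene with DMSO (circles) and with BaP (diamonds), 1 library per treatment, with dismutases, catalase and oxidase genes separated by dotted lines. The diamond lies to the right of the circle for all 4 dismutases and to the left for cat, whose value was 2676 in DMSO and 1684 in BaP. Levels of different genes are not comparable here because the values are not per length.

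All 4 superoxide dismutase genes had a higher value in the BaP library, and none reached 2-fold. The gene sod2 (ENSDARG00000042644, chromosome 20, 30937934 to 30947547, plus strand) encodes the manganese enzyme of the mitochondrial matrix. It had 493 normalized reads with DMSO and 879 with BaP, a ratio of 1.78 (95% interval 1.63 to 1.95). A ratio at least as high was found for 5.12% of all tested genes. The gene sod1 (ENSDARG00000043848, chromosome 10, 25694395 to 25699454, minus strand) encodes the copper and zinc enzyme of the cytosol. Its values were 781 and 1078, a ratio of 1.38 (1.28 to 1.49), and 12.1% of all genes had a ratio at least as high. These were the most deeply read dismutase genes, with about 726 and 1616 estimated reads for sod2 and 1151 and 1981 for sod1.

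The genes sod3a and sod3b encode copper and zinc dismutases of the extracellular type, which in mammals are secreted and bind to the cell surface and matrix. The gene sod3b (ENSDARG00000079183, chromosome 1, 39990547 to 39992042, plus strand) had 29 and 52 normalized reads, a ratio of 1.79 (1.21 to 2.71). Its copy sod3a (ENSDARG00000070168, chromosome 7, 71335815 to 71339294, plus strand) had 70 and 79, a ratio of 1.13 (0.859 to 1.49), which counting error does not separate from 1. The sod3b interval is wide because it rests on about 43 and 96 reads. The summed value of the 4 dismutase genes was 1373 with DMSO and 2088 with BaP, 1.52 times as high (1.44 to 1.61).

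Of the scalings tried, only that to equal totals brought sod2 and sod3b past the rule. Under both the trimmed mean of M values and the median of ratios their ratios were 1.86 and 1.87. With the trend on expression removed they were 1.84 and 1.9, and neither gene was called. With the libraries scaled to equal totals, which moved every log2 ratio by 0.17, their ratios were 2.0 and 2.01 and both passed the rule, so that 3 of the 10 genes were then called higher. The sod2 product acts in mitochondria, and genes of the mitochondrial genome made up 5.19% of the DMSO total and 7.1% of the BaP total. Their part in the sod2 ratio was not tested.

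Catalase differed in the opposite direction. The gene cat (ENSDARG00000104702, chromosome 25, 7492663 to 7504554, plus strand) had 2676 normalized reads with DMSO and 1684 with BaP. This was 1.59-fold lower in the BaP library, with an interval of 1.51 to 1.67. It had the lowest ratio of the 10 genes, and 9.2% of all tested genes had a ratio at most as high. The difference rests on about 3942 and 3095 estimated reads, the largest number among the 10 genes. With the libraries scaled to equal totals the ratio was 0.707, still below 1.

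Catalase is abundant in liver and red cells of vertebrates, so the markers of these cells are given beside it. All 9 hepatocyte markers were measured, and 3 of them were lower and 0 higher (33.3% called, against 6.66% of all genes). The summed value of the 9 markers was 48455 with DMSO and 29265 with BaP, a ratio of 0.604. Single hepatocyte markers ranged in ratio from 0.343 (tfa, the transferrin gene) to 1.02 (fabp10a, a liver fatty acid-binding protein gene, with 8255 and 8416 normalized reads). Of 9 erythrocyte markers 6 were higher and 0 lower (66.7% called), with sums of 3571 and 8714. Ratios of 8 of them were above 1, and hemgn went the other way with a ratio of 0.826 (0.717 to 0.951). The cat ratio thus lay near that of the hepatocyte sum and opposite to that of the erythrocyte sum, and the part of either cell type in it was not tested. In whole larvae fewer cells of a type and less RNA per cell cannot be told apart.

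**Figure D2:**
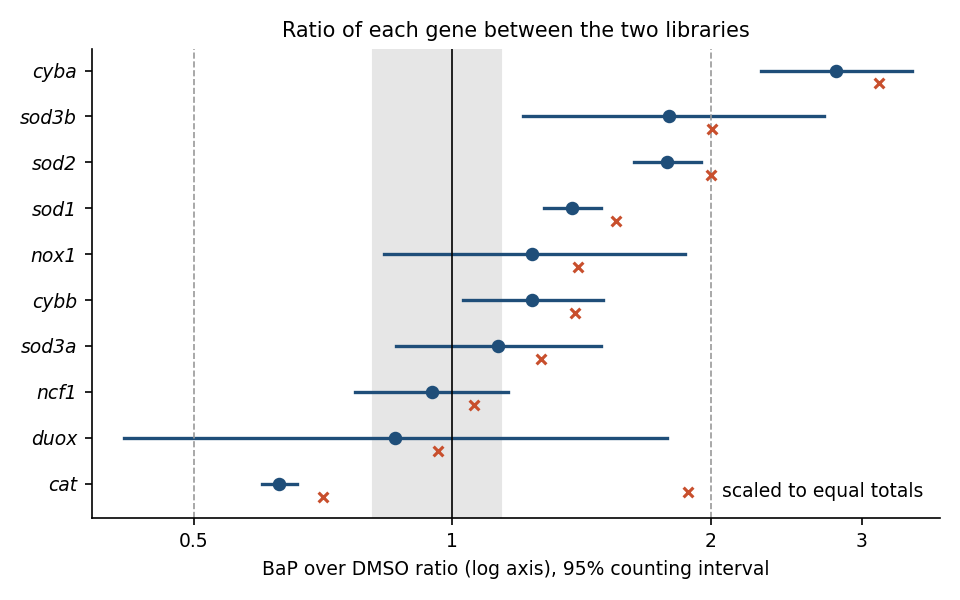
BaP over DMSO ratio of each gene (log axis, points) with its 95% counting interval (lines), and the same ratio after scaling the libraries to equal totals (crosses). Grey marks the interquartile range over all tested genes (0.809 to 1.14) and dashed lines mark 2-fold. Only cyba lies beyond 2-fold with the values as deposited, cat is the only gene whose interval lies below 1, and duox has the widest interval.

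Among the 5 oxidase genes described, cyba was the 1 called higher. The gene cyba (ENSDARG00000018283, chromosome 18, 31073265 to 31075619, plus strand) encodes p22phox, the membrane subunit that holds and stabilizes the catalytic subunit of the phagocyte oxidase and of several other NADPH oxidases. It had 93 normalized reads with DMSO and 260 with BaP, a ratio of 2.80 (95% interval 2.29 to 3.43). A ratio at least as high was found for 1.61% of all tested genes, and of genes with a summed value from 100 to below 500, like cyba, 5.45% were called in either direction. The ratio ranged from 2.62 to 3.14 over the 7 alternatives tried for it. Only the pseudocounts among them could lower it, because the scalings and the trend removal raised it and values taken as reads leave it unchanged. Its place above 2-fold was therefore little tested by them.

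The catalytic and cytosolic subunits of the phagocyte oxidase differed little. The gene cybb (ENSDARG00000056615, chromosome 11, 29795155 to 29818866, minus strand), for the catalytic subunit gp91phox, had 138 and 171 normalized reads, a ratio of 1.24 (1.03 to 1.5). The gene ncf1 (ENSDARG00000033735, chromosome 5, 61432541 to 61445697, minus strand), for the organizer p47phox, had 130 and 123, a ratio of 0.946 (0.771 to 1.16). Its ratio was 1.06 (0.866 to 1.31) with the libraries scaled to equal totals, so its direction depends on the scaling. Of the other cytosolic subunits, ncf4, for p40phox, had 57 and 58 normalized reads. Summed over cybb, ncf1 and ncf4, the value was 325 with DMSO and 352 with BaP, a ratio of 1.08 (0.958 to 1.23).

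The genes nox1 and duox rested on few reads. The gene nox1 (ENSDARG00000087574, chromosome 14, 41345175 to 41361847, plus strand) encodes a catalytic subunit that in mammals is mainly one of the colon epithelium. It had 33 and 41 normalized reads, a ratio of 1.24 (0.832 to 1.87). The gene duox (ENSDARG00000062632, chromosome 25, 31958911 to 32018990, plus strand) encodes dual oxidase, which releases hydrogen peroxide at epithelial surfaces and in the thyroid, and which makes the peroxide signal at wounds in zebrafish larvae. It had 14 and 12 normalized reads, a ratio of 0.857 (0.414 to 1.78), and a difference within this interval was not detectable at this depth.

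Markers of the cells that use these oxidases did not all differ alike. Of 7 measured neutrophil markers all had ratios above 1, from 1.1 to 4.2. The interval lay above 1 for 5 of them and included 1 for lyz and csf3r. Of the 7 markers 2 were higher, 28.6% of the list, where 3.2% of all genes were higher. These were mpx, the myeloperoxidase gene, with 379 and 829 normalized reads, and a gene model that the name table pairs with cxcr1, with 5 and 21. The ratio of that model, 4.2, is known only to lie between 1.72 and 13.0. Of genes with a summed value from 10 to below 100, like this model, 10.6% were called in either direction. The neutrophil sum was 1368 with DMSO and 2342 with BaP, a ratio of 1.71. Of 10 macrophage markers none was called, with sums of 1149 and 1147, and of 8 pan-leukocyte markers none was called, with sums of 1448 and 1400. None of these markers was at 0. The neutrophil sum lay in the direction of cyba, while the macrophage and pan-leukocyte sums lay near equality like ncf1 and ncf4. The catalytic subunit gene cybb had a ratio of 1.24 with an interval above 1 (1.03 to 1.5). The part of these leukocytes in the cyba and cybb ratios was not tested. For the epithelial oxidases, the enterocyte sum was 19829 and 15096, with 1 of 8 markers higher and 2 lower (37.5% called). The higher one was anpepb, a peptidase gene, with a ratio of 2.2. The lower ones were fabp2 and fabp1b.1, with ratios of 0.348 and 0.335. Of all tested genes 3.2% were higher and 3.46% lower. The epidermis sum was 168341 and 60103, with 0 of 8 markers higher and 4 lower, all of them keratin genes. Of the markers not called, cldni, epcam and evpla had ratios of 1.42, 1.33 and 1.15. The marker tp63 was also not called, but its ratio of 0.829 lay below 1 (0.749 to 0.917). The sum of 5 measured thyroid follicle markers was 340 and 169. The thyroglobulin gene tg, with 191 and 74 normalized reads, was the 1 thyroid marker called lower. The part of these cells in the nox1 and duox values was not tested.

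Of 13 listed partners of the oxidases 10 were measured, 2 were higher and 0 lower, where 3.2% of all genes were higher and 3.46% lower. The ratios of all 10 were above 1, but the interval lay above 1 for only 5 of them and included 1 for the others, ncf4, rac1b, nox4, nox5 and the model paired with cybc1. The list had a median log2 ratio of 0.34 against -0.06 over all genes. The higher partners were noxo1a and noxa1, which encode the organizer and the activator of the Nox1 oxidase. The gene noxo1a had 29 and 77 normalized reads, a ratio of 2.66 (1.83 to 3.93). The gene noxa1 had 3 and 15, a ratio of 5.0 known only to lie between 1.59 and 26.1. Of genes with a summed value from 10 to below 100, like noxa1, 10.6% were called in either direction. The copy noxo1b had 40 and 71 normalized reads, a ratio of 1.77 (1.27 to 2.51), and was not called. The small GTPase genes, whose products complete the active oxidase, had 499 and 680 normalized reads for rac1a, 426 and 473 for rac1b, and 420 and 477 for rac2. The gene rac1l, which was not on the list, had 10 and 3 and was called lower, a ratio of 0.3 (0.0641 to 1.0). The count of 0 lower partners therefore holds for the listed genes only. The gene model paired with cybc1, a chaperone gene of the cybb and cyba proteins, had 119 and 139. The remaining catalytic genes had 12 and 17 for nox4 and 19 and 22 for nox5. When genes with a summed value under 50 were left out, noxa1, nox4 and nox5 dropped out and the median log2 ratio became 0.22.

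**Figure D3:**
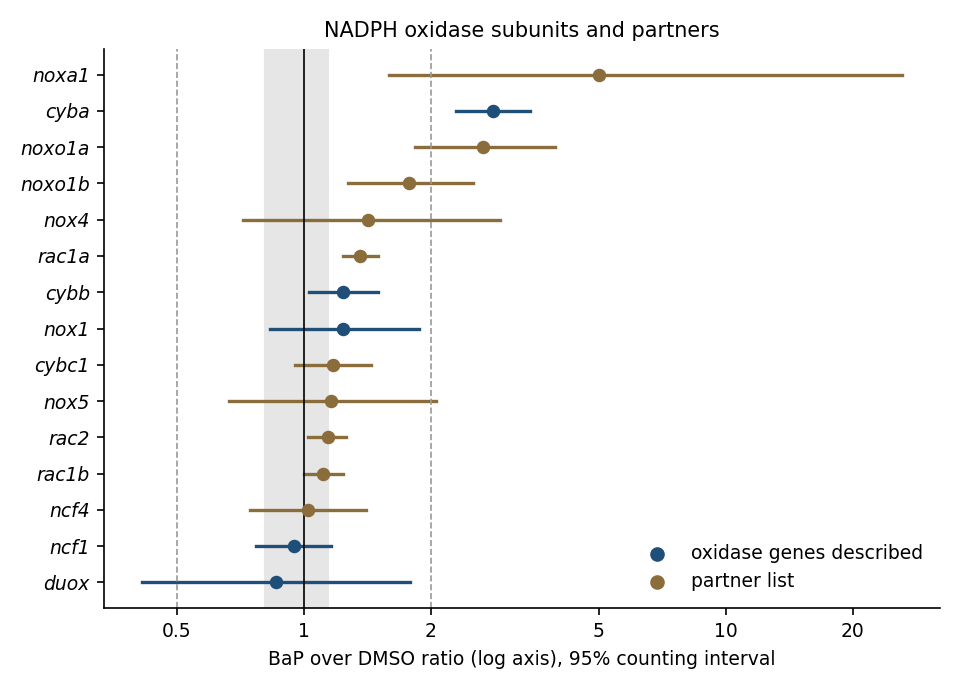
BaP over DMSO ratio (log axis) with 95% counting interval for the 5 oxidase genes described and for 10 partner genes, ordered by ratio. Grey marks the interquartile range over all tested genes and dashed lines mark 2-fold. Only noxa1, cyba and noxo1a lie beyond 2-fold, and the lowest ratios are those of duox (0.857), ncf1 (0.946) and ncf4 (1.02).

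Ratios of different genes can be set against each other without any choice of a common scale for the libraries. Among the 45 pairs of the 10 genes, the interval of the ratio of ratios excluded 1 in 26. These intervals cover counting error only and, unlike those of single ratios, are not widened for the rounding of the values. A lower end close to 1 is therefore uncertain. The share for pairs of other genes was not computed. The interval of a single ratio excluded 1 for 44.3% of all tested genes. The gene cyba had the highest ratio of the 10, so its higher ratio in all 9 of its pairs follows from that rank. Every interval of these pairs lay above 1. Against its partner cybb the ratio of ratios was 2.26 (1.74 to 2.92), and against ncf1 it was 2.95 (2.25 to 3.87). The value of cyba relative to both partners was therefore higher in the BaP library under any constant scaling of the libraries. The gene cat had the lowest ratio of the 10, and the intervals of 8 of its pairs excluded 1. Its remaining pair, with duox, gave 1.36 (0.746 to 2.49).

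Dismutases and catalase act in succession, and their ratios differed. The sod1 ratio was 2.19 times the cat ratio (2.01 to 2.39), the sod2 ratio 2.83 times (2.57 to 3.13), and the sod3b ratio 2.85 times (1.98 to 4.10). Among the dismutases, sod2 had a higher ratio than sod1, by 1.29 times (1.15 to 1.45), and sod3b a higher ratio than its copy sod3a, by 1.59 times (1.02 to 2.47). The lower end for sod3b and sod3a lies close to 1 and leaves out rounding, so their separation is uncertain. Ordered by ratio, the genes ran cyba, sod3b, sod2, sod1, nox1, cybb, sod3a, ncf1, duox and cat. Of the neighbours in this order, counting error separated cyba from sod3b and sod2 from sod1, and no other neighbouring pair. For cyba and sod3b the lower end, 1.04, was also close to 1.

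**Figure D4:**
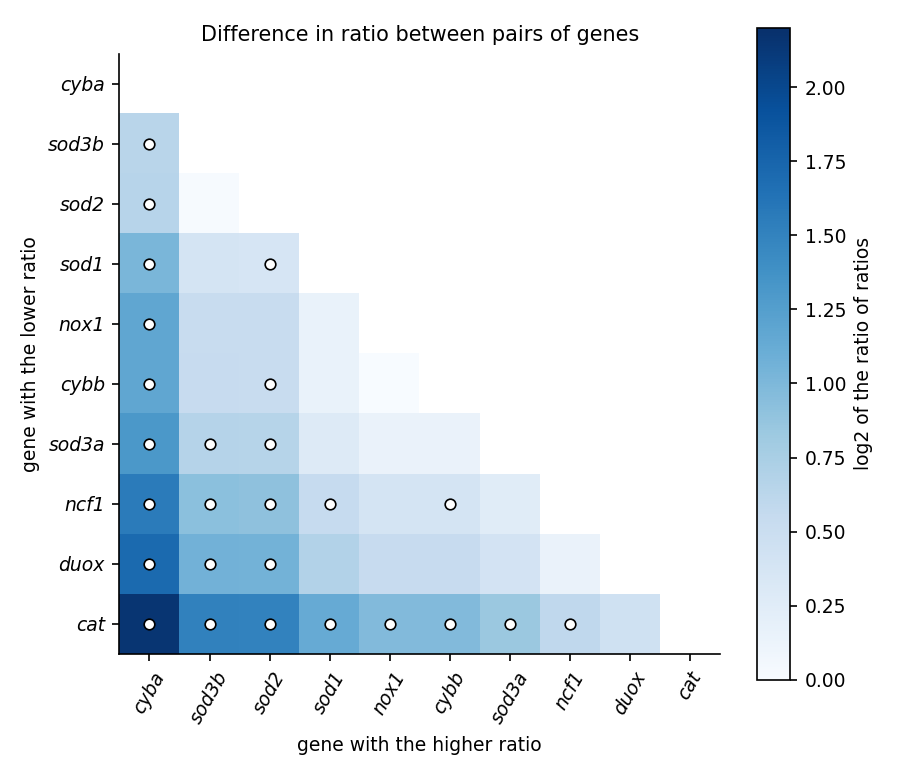
Log2 of the ratio of ratios for the 45 pairs of genes, where the column gives the gene with the higher BaP over DMSO ratio and the row the gene with the lower one. White circles mark the 26 pairs whose 95% counting interval excludes 1. The cyba column is marked throughout, and the cat row is marked except against duox.

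Genes that handle copper, zinc and manganese, the metals of the dismutases, included a called gene for the copper of another enzyme, cytochrome c oxidase. Of 8 listed genes, measured as 9 gene models, 2 models were higher and 0 lower (22.2% called, against 6.66% of all genes), with a median log2 ratio of 0.27. The gene cox17, whose product carries copper to cytochrome c oxidase in the mitochondrial intermembrane space, had 206 and 941 normalized reads, a ratio of 4.57 (4.03 to 5.19). The copper chaperone of Sod1, ccs, was present as 2 gene models, with 21 and 24 normalized reads for one and 7 and 17 for the other. The second model passed the rule with a ratio of 2.43 (1.07 to 6.25). Of genes with a summed value from 10 to below 100, like this model, 10.6% were called in either direction. No source used here says how reads shared by copies were counted, so the split between them is uncertain. The copper transporter genes had 425 and 511 normalized reads for slc31a1, which takes copper up, 266 and 357 for atox1, a cytosolic copper carrier, and 546 and 721 for atp7a, the pump that loads secreted copper enzymes. Among the transporters that also carry manganese, slc39a8 had 123 and 76 normalized reads, a ratio of 0.618 (0.487 to 0.783), slc39a14 had 39 and 45, and the exporter gene slc30a10 had 90 and 65.

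Other peroxide-removing enzymes had ratios on both sides of 1. Of 15 glutathione peroxidase and peroxiredoxin genes 1 was higher and 0 lower, and the median log2 ratio was -0.02. The called share of 6.67% equals that of all genes, 6.66%, within rounding. The called gene was prdx1, for a cytosolic peroxiredoxin, with 200 and 3134 normalized reads. The mitochondrial peroxiredoxin gene prdx3, whose product shares the matrix with Sod2, had 694 and 984, a ratio of 1.42 (1.31 to 1.53). The genes prdx2 (4426 and 2299) and prdx4 (502 and 255) had ratios of 0.519 and 0.508, just inside the 2-fold limit, and prdx6 (916 and 1804) had 1.97. The prdx2 gene is known for its abundance in red cells of mammals, whose markers had a sum ratio of 2.44 here. The part of red cells in the prdx2 ratio was not tested. Naming prdx2, prdx3, prdx4 and prdx6 goes beyond the rule for named genes and followed a look at their values.

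Enzymes that make peroxide or superoxide as a by-product had a median below that of all genes. Of 15 measured oxidase and dehydrogenase genes 1 was higher and 1 lower (13.3% called, against 6.66% of all genes), with a median log2 ratio of -0.28. The higher gene, aox5, encodes an aldehyde oxidase and had 162 and 366 normalized reads, a ratio of 2.26 (1.94 to 2.64). The lower gene, hao2, encodes a peroxisomal hydroxyacid oxidase and had 167 and 79, 2.11-fold lower (1.70 to 2.64). With the libraries scaled to equal totals hao2 was no longer called, and the list had 3 higher and 0 lower genes. Xanthine dehydrogenase (xdh), a source of superoxide in its oxidase form, had 1423 and 1016 normalized reads.

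Genes that build the peroxisome, where catalase acts, were not called in either direction. Of 21 biogenesis and transport genes 0 were higher and 0 lower, where 6.66% of all genes were called. Of them 11 had ratios above 1 and 9 below, and the median log2 ratio was 0.02. The 21 ratios ran from 0.619 to 1.35. The most abundant were abcd3a, a peroxisomal membrane transporter gene, with 1292 and 1051 normalized reads, and pex19, for a carrier of membrane proteins, with 810 and 842. The gene pex5, for the receptor that imports matrix enzymes, had 347 and 468, the highest ratio of the list, and pex6, for a part of the complex that recycles that receptor, had 197 and 122, the lowest, with a ratio of 0.619 (0.514 to 0.745).

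The table's own pathway annotation places sod1, sod2 and cat in the peroxisome term and cyba, cybb and ncf1 in the phagosome term. Of the 78 other genes in the peroxisome term 2 were higher and 4 lower (7.69% called, median log2 ratio -0.05). Of the 128 other tested genes in the phagosome term 4 were higher and 7 lower (8.59% called, median -0.05). Both shares lie near the 6.66% of all genes. Of the 10 genes, cat and duox lie on the same chromosome, and the others lie on separate chromosomes.

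**Figure D5:**
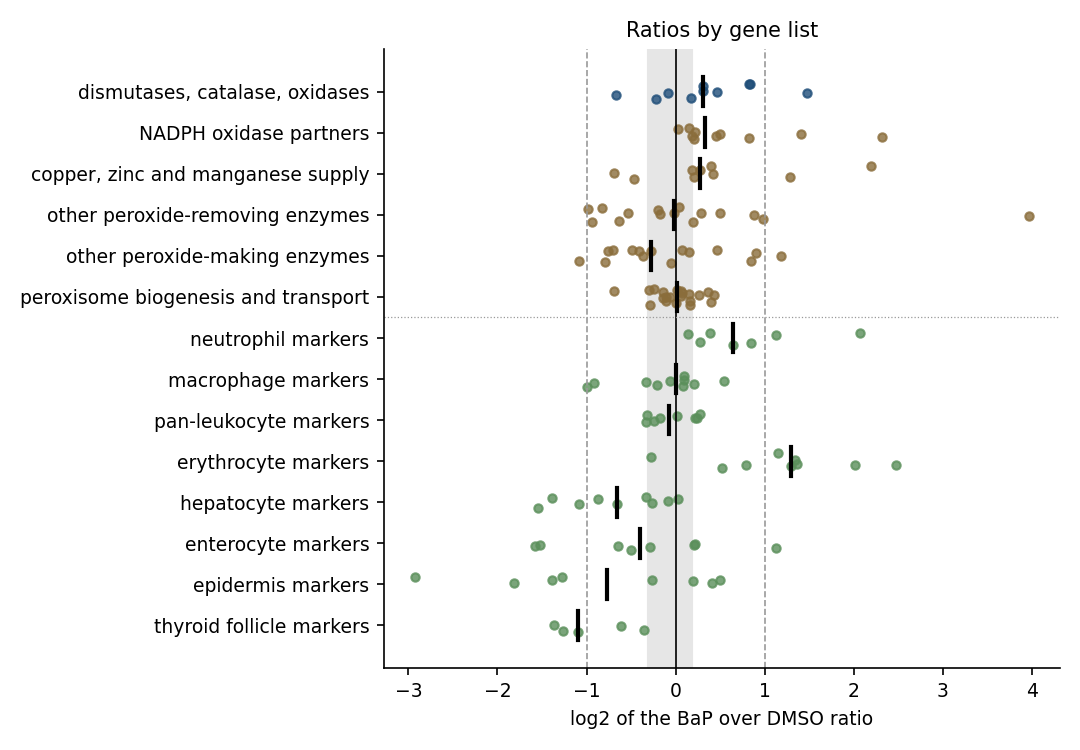
Log2 of the BaP over DMSO ratio of every measured gene (points) in each gene list, with the median of the list (black bars), for the 10 genes (blue), the related enzyme lists (brown) and the cell type markers (green). Points are spread vertically for visibility, grey marks the interquartile range over all tested genes and dashed lines mark 2-fold. The measured partner genes of the oxidases lie above 0, peroxisome biogenesis genes cluster near 0, and hepatocyte and erythrocyte markers lie mostly on opposite sides.

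Gene models of the table overlapped 4 of the 10 genes, and no source used here says whether strand entered the counting. The sod1 model overlapped scaf4a on the same strand over 1819 bases, where scaf4a had 846 and 649 normalized reads and so differed in the direction opposite to sod1. The sod2 model overlapped wtap on the other strand over 313 bases, and wtap had 935 and 926. The cat model overlapped ifitm5 on the same strand over 241 bases, and ifitm5 had 16 and 4. The cybb model overlapped xk on the same strand over 478 bases, and xk had 85 and 64. No gene model of the table overlapped cyba.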

How the data were processed

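The deposited table holds 1 column for each of 2 libraries. Its values are a score, a count per gene that the authors scaled by a method not stated and rounded, so count models were not used. The submitters' processing notes list the tools Trimmomatic 0.38, STAR 2.6.1d, featureCounts 1.6.3 and Subread and 2 builds, GRCz11 and danRer11, without saying what each was used for. Coordinates are the Ensembl coordinates of the table, which names no build itself. Per the labels' protocols, 200 ng of RNA entered each library.

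The scaling factor of each library was estimated by maximum likelihood from the spacing of values up to 150. It was 0.679 (DMSO) and 0.544 (BaP), which lay 91 and 132 log-likelihood units above the next candidate. Values divided by the factor are estimated reads, known to within about 1 read. The 95% interval of a ratio is the Clopper-Pearson interval of the BaP share of the estimated reads, widened for the rounding. With 1 pooled library per treatment, this interval covers counting error only and nothing of the variation between animals. Reads carry no molecular identifiers, so reads copied from the same molecule were not told apart and the interval may be too narrow. A value of 0 entered a ratio as 3 reads. Intervals of ratios of ratios use the normal approximation on the log scale and are not widened for the rounding. These pairs, the summed values, the annotation terms and the overlaps were added after the data had been seen. The calculation was checked on simulated data.

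Genes were named by rule: all 10 genes, then of each list up to 2 higher and 2 lower members farthest from equality, or the 2 most abundant where none was called, and cyp1a. Other genes were named after their values had been seen. The genes and lists were chosen with earlier results of these data known. One gene of the lists is not reported here. Of the remaining 153 symbols, which include the 10 genes, 10 were not matched and 7 were matched through the name table by gene identifier. With 2 libraries no genes of similar pattern were sought. Promoter and protein sequences were not used here. Alternatives were other scalings, removal of the trend on expression, other filters, folds and pseudocounts, and values taken as reads. The software was numpy 2.4.6, pandas 2.3.3, scipy 1.17.1, matplotlib 3.10.9 and statsmodels 0.14.6 under Python 3.11.15.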

Additional observations from a re-analysis of the deposited data

How the results depend on the processing

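The direction of 9 of the 10 genes was kept under all 7 alternatives tried for each, and the exception was ncf1, at 1.06 with equal totals. Pseudocounts and values taken as reads cannot change a direction, and the other alternatives raised the ratio of every one of these genes. A ratio above 1 could therefore not change direction, so this check could only bear on cat, duox and ncf1. With the libraries scaled to equal totals 3 of the 10 genes were higher instead of 1, and the split of all tested genes became 1003 higher and 490 lower instead of 697 and 753. With the trend on expression removed it was 813 and 580. With equal totals 3 peroxide-removing genes were higher, and of the peroxide-making genes 3 were higher and 0 lower. Under the trimmed mean of M values, the median of ratios and the trend removal 2 peroxide-removing genes were higher. A minimum summed value of 50 left 497 lower genes of all, 1 higher oxidase partner and 1 higher metal supply gene model. At a fold of 1.5, 3 of the 10 genes were higher (cyba, sod2, sod3b) and 1 lower (cat), beside 1566 higher (7.2%) and 1872 lower (8.6%) genes in the whole table. At that fold 1 metal supply gene was lower, 3 peroxide-removing genes were higher and 2 lower, 3 peroxide-making genes were higher and 4 lower, and 1 peroxisome gene was lower. At a fold of 3, 0 of the 10 genes were higher, and 284 higher and 225 lower genes passed in the whole table. These changes of fold and filter follow from the rule itself. Each scaling multiplied every ratio by 1 constant, 1.12 for equal totals and 1.04 for the others, which can only add higher calls and remove lower ones. Why the scalings differ from the deposited values was not tested, nor was the trend on expression. No paired analysis was possible because each treatment has 1 library, which also leaves no replicate to leave out. The intervals of duox, nox1 and sod3a include 1 and rest on 145 estimated reads or fewer in either library. That of ncf1 also includes 1 (0.771 to 1.16), with about 192 and 226 estimated reads. Depth alone does not set whether an interval includes 1, because sod3b rests on fewer reads than sod3a, about 43 and 96. The sod3b ratio was 1.79 with an interval above 1, where the sod3a ratio was 1.13.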
